A study of Mus musculus with 12 samples.

Results

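The 36 genes described here encode glutamate receptor subunits and the proteins that assemble with these receptors as auxiliary subunits. They were taken by name from the 48709 genes counted in each of 12 RNA sequencing libraries. They comprise 4 AMPA, 7 NMDA, 5 kainate and 1 delta receptor subunits, 6 metabotropic receptors, 6 transmembrane AMPA receptor regulatory proteins (TARPs), 5 AMPA receptor auxiliary subunits of other families and 2 kainate receptor auxiliary subunits. All 36 were among the 18847 genes that passed the filter on low counts.

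The libraries came from primary hippocampal cultures of the mouse (strain CD1, embryonic day 17), in which neurons grow together with glia. At day 10 in vitro the cultures received lipid nanoparticles with either a miR-148a-3p mimic (6 samples) or a negative control oligonucleotide (6 samples), and they were harvested 48 h later, at day 12. According to the study's methods, ApoE4 was added in both groups and the cells of a preparation were pooled from the hippocampi of several embryos. The labels do not say which samples were separate preparations, so p-values measure the spread between these samples, which may be technical. The comparison asks how the transcripts of a neuronal culture change when miR-148a-3p is supplied.

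Glutamate is the main excitatory transmitter of the hippocampus. AMPA receptors are tetramers of GluA subunits that carry most of the fast synaptic current, and NMDA receptors combine the obligatory GluN1 with GluN2 or GluN3 subunits and admit calcium when glutamate and depolarisation coincide. Kainate receptors are built from GluK subunits, whereas the metabotropic receptors signal through G proteins and sit on neurons and on astrocytes. Auxiliary subunits such as TARPs, cornichons, Shisa proteins, GSG1L and Neto proteins set the trafficking and the kinetics of the channels they bind.

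A microRNA recognises transcripts through its seed, bases 2 to 8 from the 5′ end, which pairs with matching sites in the 3′ UTR. The strand of the mimic and that of the negative control listed among the study's reagents are shown with the seed in capitals, since both sequences define the sites searched for in the members. The mimic strand is identical to the mature mmu-miR-148a-3p of RefSeq (GRCm38.p6).
miR-148a-3p mimic: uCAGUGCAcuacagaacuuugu
negative control: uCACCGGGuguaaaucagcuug

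A total of 10 of the 36 members held 15 sites for the mimic in their longest annotated 3′ UTR (GENCODE M21, GRCm38, the same build as mm10). A site was a match to TGCACTG or to GCACTGA on the transcript strand, and TGCACTGA, which holds both, counts as 1 site of 8 bases. Members with a site were Gria3, Gria4, Grin2a, Grin2b, Grik3, Grik4, Grid1, Cacng8, Neto1 and Neto2. In the sequences that follow, the capitals mark the matched site, which in the sites of 8 bases includes the A opposite base 1 of the mimic, outside the seed. They are shown because they include each site of 8 bases and the sites of Grik4 and Grid1, which differed between the groups. Neto1 also differed, and its site is not shown.
Grin2a, chr16:9574107-9574128, minus strand: ataaataaatacctTGCACTGA
Grin2b, chr6:135723475-135723496, minus strand: tgatccaataggatTGCACTGA
Grik3, chr4:125710236-125710257, plus strand: tgtgtgtgtgtgtgTGCACTGA
Neto2, chr8:85637784-85637805, minus strand: aaggaactgcagtcTGCACTGA
Grik4, chr9:42520200-42520221, minus strand: tttggagttgcaggTGCACTGg
Grid1, chr14:35582777-35582798, plus strand: catgttgggcaactTGCACTGg

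Library totals ranged from 20018234 to 37149112 counts, and control replicates 1 and 2 were the shallowest. Levels are given as CPM, counts per 1000000 of the library total after TMM scaling. In these values control replicate 1 stood apart from the other controls. It was the lowest or the highest of the 6 control libraries for 31 of the 36 members, while each of the other 11 libraries held such a place in its own group for 2 to 16. In this library the 20 members with a 3′ UTR of at least 2000 bases lay at a median of -0.10 on the log2 scale from the control median, and the 16 members with a shorter one at 0.31. The difference of these medians was -0.41 in control replicate 1, -0.17 in control replicate 2 and between -0.02 and 0.08 in the other 10 libraries. The split at 2000 bases was chosen after the values were seen, and the part of this difference in the results was not tested. Results without both libraries are given beside the members whose call they change.

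**Figure D1:**
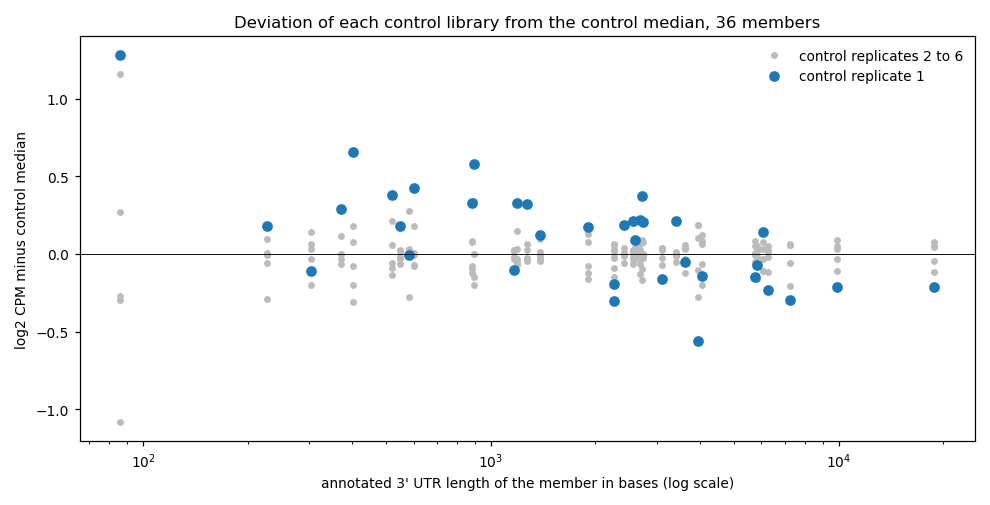
Deviation of the 36 members in each control library, as log2 CPM minus the median of the 6 controls, against the length of the annotated 3′ UTR in bases on a log scale. Each point is 1 member in 1 library, with control replicate 1 in blue and the other 5 controls in grey. The blue points lie mostly above the grey ones for short 3′ UTRs, with a median of 0.31 under 2000 bases, and below them for the longest.

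Beside the members, markers of several cell types moved with the groups. Of 12 astrocyte markers 8 were higher and 1 was lower in mimic, and their summed level was 6483 to 7218 CPM in control and 7934 to 8361 CPM in mimic. Of 9 oligodendrocyte precursor markers 8 were higher and the other, Lhfpl3, had a log2 fold change of 0.02, with sums of 414 to 711 CPM in control and 807 to 1001 CPM in mimic. All 9 markers of dividing cells were higher, with sums of 189 to 235 and 406 to 428 CPM. Of 12 pan-neuronal markers 4 were lower and 1 was higher, and the sums of 8142 to 8812 CPM in control and 7900 to 8247 CPM in mimic overlapped. Of 10 excitatory neuron markers 3 were lower and 1 was higher, with sums of 2865 to 3375 CPM in control and 3168 to 3282 CPM in mimic. Of 12 interneuron markers 2 were higher and 1 was lower, with sums of 738 to 891 CPM in control and 876 to 934 CPM in mimic. No marker of these lists was at 0 in any library. The part of these shifts in the members' results was not tested. In bulk RNA, fewer cells of a type and less RNA per cell cannot be told apart.

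**Figure D2:**
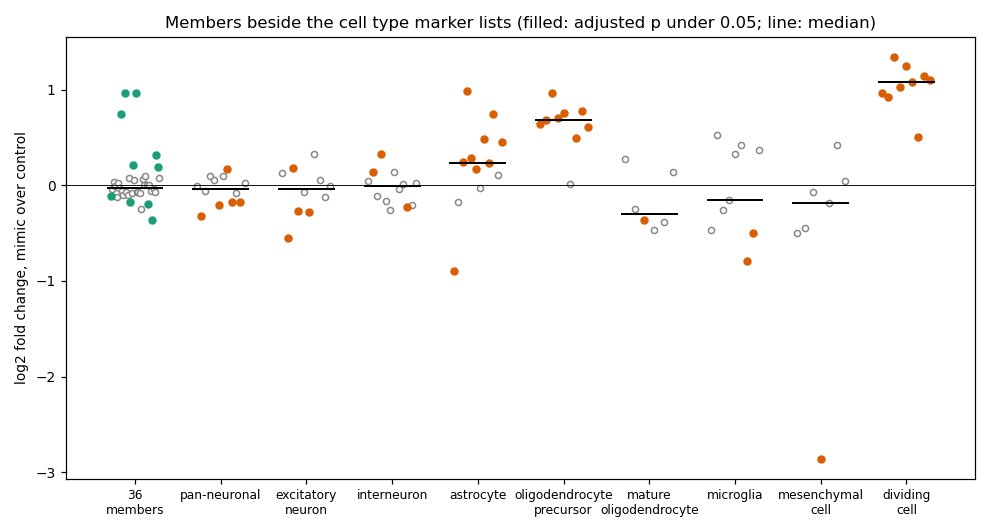
Log2 fold change of mimic over control for the 36 members and for the genes of 9 cell type marker lists. Each point is 1 gene, filled where the edgeR adjusted p was under 0.05, and a line marks the median of each list. The members centre near 0 with a median of -0.03, the oligodendrocyte precursor and dividing cell lists have medians of 0.69 and 1.08, and the astrocyte list runs from -0.90 to 0.99.

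Between mimic and control, 10 of the 36 members were called at an edgeR adjusted p under 0.05 (quasi-likelihood F-test, adjusted over all tested genes), or 27.8%, beside 22.2% of all tested genes. Of these members 6 were higher in mimic, namely Grm3, Grin3b, Grin2c, Gsg1l, Grid1 and Neto1, and 4 were lower, namely Cnih3, Cacng7, Grik4 and Gria1. Over all tested genes 11.5% were called higher and 10.7% lower. The 6 mimic and 6 control libraries did not overlap in CPM for 5 of the 36 members (Grm3, Neto1, Cnih3, Cacng7 and Gria1), beside 13.3% of the tested genes. The median log2 fold change was -0.03 over the members and -0.01 over all tested genes. With all 12 libraries the share of members called was thus near that of all tested genes. Without control replicates 1 and 2 the shares were 61.1% and 31.3%. The 26 members not called with all 12 libraries had log2 fold changes between -0.25 and 0.10 with standard errors of 0.03 to 0.12. Of these, 21 lay within 0.1 of 0.

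The direction of the smaller changes depended on the scaling. When libraries were scaled to the sum of the 12 pan-neuronal markers, 25.8% of all tested genes were called. The higher share of the calls over all genes rose from 51.7% to 79.7%, and the median log2 fold change of all tested genes moved from -0.01 to 0.07. Of the members 8 were then called higher and 1, Cnih3, lower. The calls of Gria1, Grik4 and Cacng7 were lost, and Cacng2 and Cacng4 were called higher. Without control replicates 1 and 2, 31.3% of all tested genes were called, and 22 of the members, or 61.1%, 9 of them higher and 13 lower. Without control replicate 1 alone, Cacng2 and Cacng4 were called higher and Grik2 and Grm7 lower, in addition to the 10. The sign of 8 uncalled members (Gria3, Grin2a, Grin2d, Grik5, Grm4, Cacng8, Cnih2 and Neto2) turned without control replicate 1 or without control replicates 1 and 2. Each of the 10 called members kept its direction with pan-neuronal scaling and without control replicates 1 and 2.

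**Figure D3:**
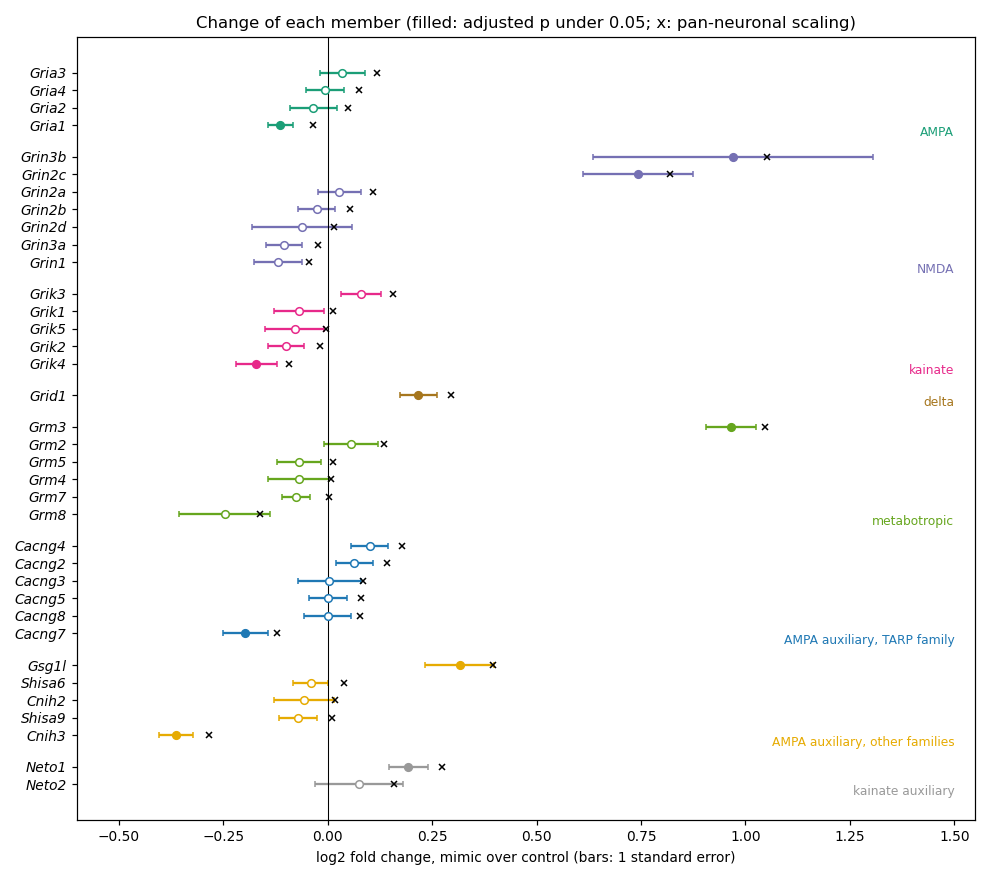
Log2 fold change of mimic over control for each of the 36 members, ordered by receptor class, with bars of 1 standard error. Filled circles mark the 10 members with an edgeR adjusted p under 0.05 and crosses give the value when libraries were scaled to pan-neuronal markers. Grm3, Grin3b and Grin2c lie to the right at 0.97, 0.97 and 0.74, Cnih3 lies furthest to the left of the called members at -0.36, and most other members sit near 0.

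Levels were compared between genes as CPM per kilobase of exon. They spanned 0.131 for Grin3b to 268 for Cnih2 (mean of 12 libraries), with 18 members at 10 or more and 3 (Grin2d, Grm8 and Grin3b) under 1. Cnih2, which encodes a cornichon that binds AMPA receptors, had the highest level of all members, at 273 ± 39.3 in control and 262 ± 8.59 in mimic (SD, n = 6 each). The highest member of each of the 8 classes was the same when the length of the longest transcript was used in place of all exons, although that raised Grin1 to 77.5 in control, from 34.2.

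**Figure D4:**
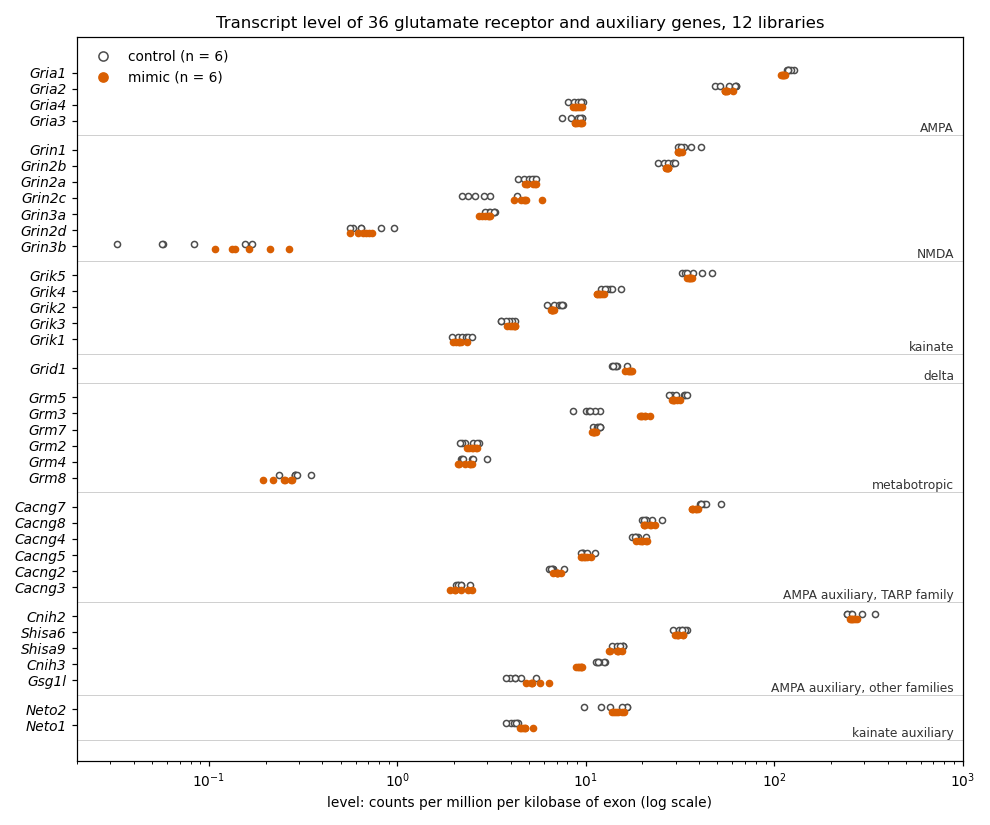
Transcript level of the 36 members by class, in CPM per kilobase of exon on a log scale. Each open circle is 1 of 6 control libraries and each filled circle 1 of 6 mimic libraries. The levels run from 0.131 for Grin3b to 268 for Cnih2 (mean of 12 libraries), and control and mimic lie apart for Grm3 and Cnih3.

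Among the AMPA receptor subunits, Gria1 and Gria2, which encode GluA1 and GluA2, made up most of the transcripts. In control, Gria1 held 61.5% ± 3.00 and Gria2 29.3% ± 2.47 of the summed level per kilobase, and in mimic 60.0% ± 1.05 and 30.2% ± 1.00 (SD, n = 6 each). With the longest transcripts as lengths these shares were 53.7% ± 3.19 and 35.1% ± 2.62 in control and 52.0% ± 1.10 and 36.1% ± 1.06 in mimic. Gria3 and Gria4 were at 8.89 ± 0.837 and 9.06 ± 0.585 CPM per kilobase in control, a difference within their spread. Divided by the longest transcript they were at 16.8 and 10.5, so their order depended on the length used.

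Gria1 was the called member of this class. It was at 706, 721 and 767 CPM (lowest, median and highest) in control and at 657, 677 and 690.4 in mimic, so the groups did not overlap. It fell by 0.11 on the log2 scale (edgeR adjusted p = 0.0115, SE 0.03). With pan-neuronal scaling its log2 fold change was -0.04 (edgeR adjusted p = 0.571). With the replicate number as a block it was -0.11 and not called (edgeR adjusted p = 0.0530).

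Gria2, the subunit that makes AMPA receptors impermeable to calcium once its transcript is edited, was at 758, 931 and 974 CPM in control and at 851, 862 and 937 CPM in mimic. The lowest control was replicate 1, and the ranges overlapped throughout. Its log2 fold change was -0.03 (edgeR adjusted p = 0.739, SE 0.06). Without control replicates 1 and 2 it was -0.12 (edgeR adjusted p = 0.00261). Gria3 and Gria4 had log2 fold changes of 0.03 and -0.01 and were not called.

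The proportion of Gria1 to Gria2 transcripts did not differ beyond the spread of the libraries. The log2 ratio per kilobase was 1.07 ± 0.19 in control and 0.99 ± 0.07 in mimic (SD, n = 6 each), a difference of -0.08 (two-sided exact permutation p = 0.359, adjusted over 3 ratios p = 0.530). Without control replicates 1 and 2 the difference was 0.026 (adjusted exact permutation p = 0.638). For Gria4 to Gria2 the log2 ratio was -2.66 ± 0.07 and -2.64 ± 0.07 (exact permutation p = 0.530, adjusted p = 0.530). The smallest p that these 12 samples allow is 0.00216.

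Of the NMDA receptor subunits 2 of 7 were called, both higher. Grin1, which encodes the obligatory GluN1, had the highest level per kilobase of the class, with 34.2 ± 3.86 in control and 31.4 ± 0.487 in mimic. Its CPM values were 301, 317 and 398 in control and 300.0, 304 and 313 in mimic, and the highest control value was that of replicate 1. The log2 fold change was -0.12 (edgeR adjusted p = 0.153, SE 0.06), and without control replicates 1 and 2 it was -0.02 (edgeR adjusted p = 0.562). Its exons overlap the antisense gene Grin1os over 1307 of 9700 bases, and Grin1os averaged 109.5 counts against 9407 of Grin1.

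Grin2c, whose GluN2C subunit is best known from cerebellar granule cells and is also found in astrocytes, showed the largest change of the NMDA subunits with a mean of at least 100 counts. It was at 11.1, 13.8 and 21.7 CPM in control and at 21.0, 23.8 and 29.4 CPM in mimic. The groups overlapped through control replicate 1 alone, since the other 5 controls reached 15.6 CPM at most. The log2 fold change was 0.74 (edgeR adjusted p = 0.000743, SE 0.13), a 1.67-fold higher level, and it stayed called in all 12 fits that left out 1 library, with values of 0.67 to 0.88. Grin2c supplied 3.93% ± 0.86 of the NMDA subunit transcripts per kilobase in control and 6.65% ± 0.73 in mimic (SD, n = 6 each). With the longest transcripts as lengths these shares were 2.45% ± 0.47 and 4.25% ± 0.48.

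The GluN2 subunits typical of the forebrain, Grin2a and Grin2b, were not called over all libraries. Grin2b, which dominates early in development, was at 602, 699 and 737 CPM in control and 660.4, 673 and 679 CPM in mimic, with a log2 fold change of -0.03 (edgeR adjusted p = 0.737, SE 0.04). Grin2b fell by 0.09 without control replicates 1 and 2 (edgeR adjusted p = 0.00862). Grin2a, which takes a growing share as neurons mature, had a log2 fold change of 0.03 (edgeR adjusted p = 0.771, SE 0.05), although its 3′ UTR holds 4 mimic sites, the most of any member. The log2 ratio of Grin2a to Grin2b per kilobase was -2.46 ± 0.01 in control and -2.41 ± 0.08 in mimic (SD, n = 6 each), a difference of 0.05 (two-sided exact permutation p = 0.126, adjusted over 3 ratios p = 0.377). Grin2a was thus at 0.182 of the Grin2b level in control and 0.189 in mimic. Without mimic replicate 5 the difference was 0.07 (adjusted exact permutation p = 0.0130).

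Grin2d and Grin3a were not called, with log2 fold changes of -0.06 and -0.10. Grin3a fell by 0.14 without control replicates 1 and 2 (edgeR adjusted p = 0.00902). Grin3b, a glycine-binding subunit that is scarce in the hippocampus, held only 3 to 25 counts per library. It was at 0.107, 0.232 and 0.555 CPM in control and 0.357, 0.496 and 0.879 CPM in mimic, with overlapping groups. Its log2 fold change was 0.97 (edgeR adjusted p = 0.0470, SE 0.34), and it was called in only 3 of the 12 fits that left out 1 library. Without control replicates 1 and 2 its value was 1.51 (edgeR adjusted p = 0.000777). The exons of Grin3b overlap those of Tmem259 on the opposite strand over 1059 of 3296 bases, and Tmem259 averaged 2968 counts, with a log2 fold change of 0.04 (edgeR adjusted p = 0.801). Whether the counting used the strand is not stated, so reads of both genes cannot be told apart there.

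Of the kainate receptor subunits 1 of 5 was called. Grik5, which encodes the high-affinity subunit GluK5, had the highest level, with 58.4% ± 2.80 of the class per kilobase in control and 59.0% ± 0.56 in mimic (SD, n = 6 each). It was at 169, 185 and 240.4 CPM in control and 179, 184 and 188 CPM in mimic, and the log2 fold change of -0.08 was not called (edgeR adjusted p = 0.484, SE 0.07). It was -0.01 without control replicate 1, the highest control, and 0.05 without control replicates 1 and 2 (edgeR adjusted p = 0.910 and 0.302).

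Grik4, which encodes the other high-affinity subunit, GluK4, was at 72.1, 78.7 and 91.8 CPM in control and at 68.5, 70.2 and 74.8 CPM in mimic. The groups overlapped at their edges. Grik4 fell by 0.17 on the log2 scale (edgeR adjusted p = 0.0184, SE 0.05), and by 0.09 with pan-neuronal scaling, where the adjusted p was 0.293. Grik1, Grik2 and Grik3, which can form channels by themselves, had log2 fold changes of -0.07, -0.10 and 0.08 and were not called. Without control replicates 1 and 2, Grik2 fell by 0.16 (edgeR adjusted p = 6.74e-05) and Grik3 was higher by 0.13 (edgeR adjusted p = 0.0144).

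Grid1 encodes the delta receptor GluD1, which bridges synapses through cerebellins rather than acting as a classical glutamate-gated channel. It was at 81.8, 85.6 and 99.1 CPM in control and at 95.8, 101 and 105 CPM in mimic. Control replicate 1 held the highest control value, and the other 5 controls lay below all 6 mimic libraries. The log2 fold change was 0.22 (edgeR adjusted p = 0.00146, SE 0.04), or 1.16-fold.

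Of the metabotropic receptors 1 of 6 was called, with the lowest adjusted p of all members. Grm3, which encodes the Gi-coupled receptor mGlu3 found on astrocytes as well as on neurons, was at 26.0, 31.9 and 36.2 CPM in control and at 59.2, 61.5 and 67.2 CPM in mimic. Every mimic library lay above every control library. The log2 fold change was 0.97 (edgeR adjusted p = 4.86e-09, SE 0.06), a 1.95-fold higher level. It ranged from 0.92 to 1.00 when any 1 library was left out and was 1.05 with pan-neuronal scaling. Its share of the metabotropic transcripts per kilobase was 17.8% ± 1.72 in control and 30.7% ± 1.16 in mimic (SD, n = 6 each). The sum of the 12 astrocyte markers moved in the same direction as Grm3 and Grin2c, from 6483 to 7218 CPM in control to 7934 to 8361 CPM in mimic, with Gfap itself lower at a log2 fold change of -0.90, and its part in these changes was not tested.

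Grm5, which encodes the Gq-coupled mGlu5 and was the highest of the class in level, was at 282, 324 and 353 CPM in control and at 295, 302 and 325 CPM in mimic. The ranges overlapped, and the log2 fold change of -0.07 was not called (edgeR adjusted p = 0.394, SE 0.05). It was -0.14 without control replicates 1 and 2 (edgeR adjusted p = 0.00289). Grm2, the other group II receptor beside Grm3, had a log2 fold change of 0.06 (edgeR adjusted p = 0.604, SE 0.06). The group III receptors Grm4, Grm7 and Grm8, which act mostly at presynaptic terminals, had values of -0.07, -0.08 and -0.25 and were not called. Without control replicates 1 and 2, Grm7 fell by 0.10 and Grm8 by 0.31 (edgeR adjusted p = 0.00785 and 0.0416). Without control replicate 1 alone, the adjusted p of Grm7 was 0.0222.

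The TARPs bind AMPA receptors and alter their trafficking or gating, and 1 of 6 was called. Cacng7, which encodes γ-7 and had the highest level of the family, was at 98.7, 102 and 127 CPM in control and at 89.2, 92.2 and 96.4 CPM in mimic. The groups did not overlap, and control replicate 1 lay above the other 5 controls. Cacng7 fell by 0.20 on the log2 scale (edgeR adjusted p = 0.0135, SE 0.05), by 0.13 without control replicates 1 and 2 (edgeR adjusted p = 0.00196) and by 0.12 with pan-neuronal scaling (edgeR adjusted p = 0.191).

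The other TARPs were not called. Cacng8, which encodes γ-8, the TARP most closely tied to the hippocampus, and Cacng5 had log2 fold changes that rounded to 0.00, with standard errors of 0.06 and 0.05. Cacng3 stood at 0.00 with an SE of 0.08. Cacng2, which encodes stargazin, and Cacng4 had values of 0.06 and 0.10, and both were called higher without control replicates 1 and 2 (0.09 and 0.14, edgeR adjusted p = 0.0482 and 0.00244).

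Among the other AMPA receptor auxiliary subunits, 2 of 5 were called, in opposite directions. Cnih3, a cornichon that like Cnih2 slows the closing of AMPA receptors, was at 31.2, 32.2 and 35.0 CPM in control and at 24.3, 25.6 and 26.2 CPM in mimic. The groups did not overlap. Cnih3 fell by 0.36 on the log2 scale (edgeR adjusted p = 4.12e-06, SE 0.04), to 0.777 of the control level. It fell by 0.29 with pan-neuronal scaling (edgeR adjusted p = 0.000504), so it was the only member called lower under both scalings.

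Cnih2 itself was at 333, 352 and 472 CPM in control and at 345, 356 and 377 CPM in mimic, with control replicate 1 highest. Its log2 fold change was -0.06 (edgeR adjusted p = 0.637, SE 0.07), and it turned to 0.02 without that library and to 0.07 without control replicates 1 and 2 (edgeR adjusted p = 0.761 and 0.0810).

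Gsg1l, whose product slows the recovery of AMPA receptors from desensitisation, was at 14.8, 16.6 and 21.5 CPM in control and at 19.0, 20.3 and 25.0 CPM in mimic. The groups overlapped through control replicate 1, since the other 5 controls reached 17.7 CPM at most. The log2 fold change was 0.32 (edgeR adjusted p = 0.00985, SE 0.08), or 1.25-fold. Shisa6 and Shisa9, which encode proteins that alter AMPA receptor desensitisation, had values of -0.04 and -0.07 and were not called. Both were called lower without control replicates 1 and 2, at -0.08 and -0.11 (edgeR adjusted p = 0.0406 and 0.0232).

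Neto1 and Neto2 encode CUB-domain proteins that bind kainate receptors, and 1 of them was called. Neto1 was at 31.4, 35.1 and 36.3 CPM in control and at 37.4, 39.4 and 43.8 CPM in mimic, without overlap. The log2 fold change was 0.19 (edgeR adjusted p = 0.00635, SE 0.05), or 1.14-fold. Neto2, the higher of the pair in level, was at 60.3, 89.2 and 101 CPM in control and at 84.6, 89.6 and 98.3 CPM in mimic, with control replicate 1 lowest. Its log2 fold change was 0.07 (edgeR adjusted p = 0.686, SE 0.10), and it turned to -0.0066 without that library and to -0.07 without control replicates 1 and 2 (edgeR adjusted p = 0.969 and 0.427).

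**Figure D5:**
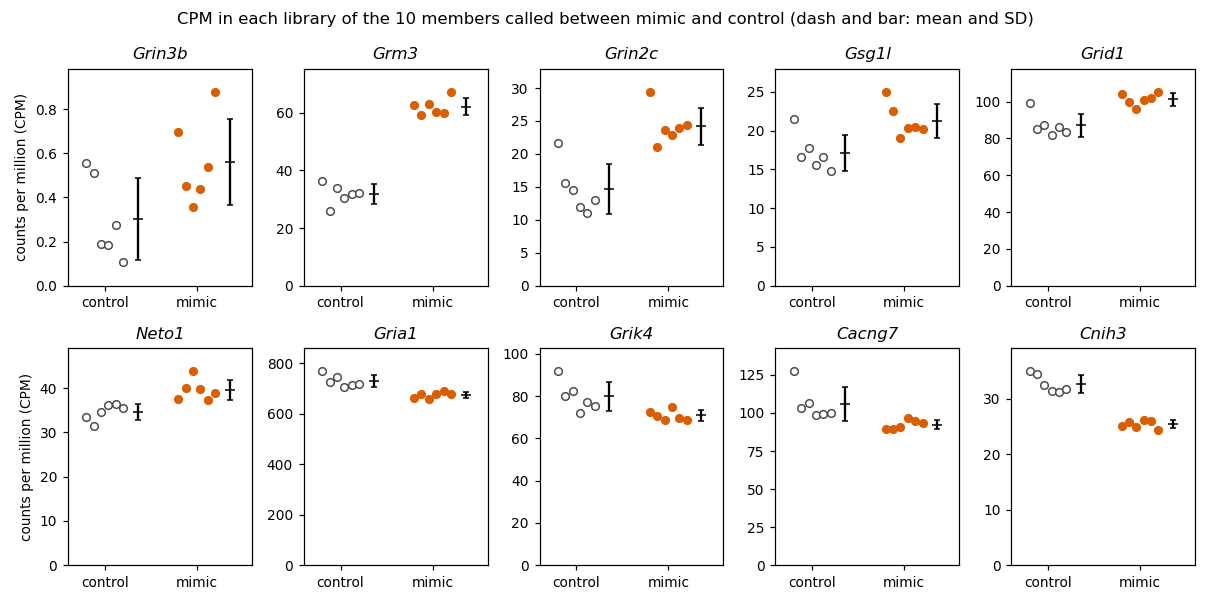
CPM of the 10 called members in each library, in panels ordered by fold change and with vertical axes from 0. Open circles are the 6 control and filled circles the 6 mimic libraries, in the order of their replicate numbers, and the bars give mean and SD. Grm3 shows the widest gap, from 36.2 CPM in the highest control to 59.2 in the lowest mimic library, and control replicate 1, the first open circle, is the highest control in 9 of the 10 panels, all but that of Neto1.

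The sites shown at the start were set beside these changes. Of the 10 members with a mimic site, 1 (Grik4) was called lower and 2 (Grid1 and Neto1) were called higher. Among the tested genes with an annotated 3′ UTR, 19.3% of the 3302 with such a site were called lower and 11.7% higher, and of the 11770 without one 10.7% and 14.2%. The median 3′ UTR of these genes had 2307.5 bases with a site and 932.5 without one. The part of this difference in length in these shares was not tested. The median log2 fold change of the 10 members was 0.03, with a range of -0.17 to 0.22, and that of the 26 members without a site was -0.07. This order turned without control replicates 1 and 2, where the medians were -0.037 and -0.0055. Over the tested genes with an annotated 3′ UTR the medians were -0.04 with a site and 0.0014 without one. The 4 members with a site of 8 bases, Grin2a, Grin2b, Grik3 and Neto2, had log2 fold changes of 0.03, -0.03, 0.08 and 0.07 and were not called (lowest edgeR adjusted p = 0.267, for Grik3). The called falls of Cnih3, Cacng7 and Gria1 were in members without a site in the longest annotated 3′ UTR. Sites for the negative control were found in 2 members, Gsg1l and Neto2, on the assumption that the listed sequence was the one given to these cultures.

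Genes that handle glutamate or anchor its receptors were described by the same counts. Of 14 genes of glutamate synthesis, vesicular loading and uptake, 4 were called higher and 2 lower, or 42.9%, beside 22.2% of all tested genes. The largest rise was that of Slc1a3, the astrocytic glutamate transporter GLAST, at 0.99 (edgeR adjusted p = 4.23e-11, SE 0.04). It was at 835 to 966 CPM in control and 1777 to 1848 CPM in mimic. The largest fall was that of Slc17a6, the vesicular transporter VGLUT2, at -0.55 (edgeR adjusted p = 3.15e-05, SE 0.07). Slc17a7, of the same family, was at a mean of 746 CPM in control, against 42.0 for Slc17a6. The log2 fold change of Slc17a7, 0.13, was not called (edgeR adjusted p = 0.0760, SE 0.05). Slc17a7 was called higher with pan-neuronal scaling (0.20, edgeR adjusted p = 0.0212) and without control replicates 1 and 2 (0.19, edgeR adjusted p = 5.61e-05). Slc1a4, a neutral amino acid transporter of the same family as Slc1a3, also fell, with a log2 fold change of -0.31 (edgeR adjusted p = 3.3e-06, SE 0.03) and no overlap between the groups. The 4 genes called higher with TMM scaling of all 12 libraries were Slc1a3, Slc1a2, Glul and Slc38a3. They act in uptake and in the glutamine cycle, which are mainly astrocytic, and 3 of them are also on the astrocyte marker list. With pan-neuronal scaling 6 of the 14 genes were called higher and 2 lower, or 57.1%, beside 25.8% of all tested genes.

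Of 20 receptor anchoring scaffolds 1 was higher, Dlgap1 by 0.10 (edgeR adjusted p = 0.0412, SE 0.03), and 1 was lower, Magi2 by 0.10 (log2 fold change -0.10, edgeR adjusted p = 0.0307, SE 0.03). These calls were 10% of the list, beside 22.2% of all tested genes. Dlgap1 was called in 2 of the 12 fits that left out 1 library and Magi2 in 9. Tested without the filter on low counts, neither was called (edgeR adjusted p = 0.0880 for Dlgap1 and 0.138 for Magi2). The scaffold Dlg4, which encodes PSD-95, stood at 0.00 (SE 0.07), and was called higher without control replicates 1 and 2, at 0.10 (edgeR adjusted p = 0.00401). Without these libraries 5 scaffolds were called higher and 4 lower, or 45%, beside 31.3% of all tested genes. With pan-neuronal scaling 4 were called higher and 0 lower, or 20%, beside 25.8% of all tested genes. Of 20 assembly factors and extracellular partners 2 were higher and 2 lower, led by the neuronal pentraxin Nptx2 at 0.52 (edgeR adjusted p = 0.00339, SE 0.11) and by Prrt1 at -0.16 (edgeR adjusted p = 0.0430, SE 0.05). These calls were 20% of the list, beside 22.2% of all tested genes. Prrt1 was called in 3 of the 12 fits that left out 1 library, and without control replicates 1 and 2 its value was -0.08 (edgeR adjusted p = 0.0539).

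Of 21 genes of signalling downstream of the receptors 3 were higher and 6 lower, led by Rasgrf1 at 0.36 (edgeR adjusted p = 0.000312, SE 0.06) and by Nos1 at -0.24 (edgeR adjusted p = 0.000602, SE 0.04). These calls were 42.9% of the list, beside 22.2% of all tested genes. Under pan-neuronal scaling 7 of these genes were called higher and 1 lower, or 38.1%, beside 25.8% of all tested genes. That scaling raised the higher share of the calls over all genes to 79.7%. Of the 3 RNA editing enzymes, Adar was lower by a log2 fold change of -0.10 (edgeR adjusted p = 0.0362, SE 0.03), called in 5 of the 12 fits that left out 1 library and not when libraries were scaled by total counts (adjusted p = 0.0535) or tested without the filter (0.133), and Adarb1, whose product edits the Gria2 transcript, had a value of -0.07 (edgeR adjusted p = 0.193, SE 0.04). With pan-neuronal scaling the falls of Magi2, Prrt1 and Adar were not called, and those of Slc17a6 and Nos1 were.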

How the data were processed

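RNA from 12 samples (6 control, 6 mimic, by the sample titles) was sequenced by the submitters as 50 bp single-end reads of poly(A)-selected libraries. The authors aligned the reads to mm10 with STAR (version 2.5.2b per the submitters' processing notes) and counted them per gene with featureCounts (Subread 1.5.1). The deposited values are these raw counts for 48709 genes, of which 48349 matched a GENCODE M21 symbol. Strand use in counting is not stated, and reads shared by related genes can be lost. A deposited table of normalized values was not used here.

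A gene was tested when 50% or more of the samples held 5 counts or more, the filter of the study. The test was edgeR's quasi-likelihood F-test (edgeR 4.0.16, R 4.3.3, TMM, robust, Benjamini-Hochberg over all tested genes, called under 0.05). The fit was also run on simulated independent counts. These did not hold the deviation of control replicates 1 and 2 by 3′ UTR length, so they cannot show how the fit handles it. The SE is the log2 fold change divided by the square root of F. CPM are counts relative to TMM-scaled library totals, and levels per kilobase divide CPM by the union of exons. Ratios used counts plus 0.5 and exact permutation over 924 relabellings. Python was version 3.11.15. The members, classes, lists and tests were chosen with earlier results of these data known. Members with an adjusted p under 0.05 and a mean of at least 100 counts, and the highest member of each class, received full values, as did in each list of other pathway genes the largest called rise and fall. Grin3b, Gria2, Grin2a, Grin2b, Dlg4, Slc1a4, Slc17a7 and Adarb1 are given beyond this rule and were chosen after their values were seen.

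DESeq2 1.42.0, other size factors, total counts, pan-neuronal scaling, other filters, no robust estimation, a replicate block, a minimum fold of 1.2 and leaving out libraries were the alternatives.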

Additional observations from a re-analysis of the deposited data

Results flagged for a closer look

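Among 78 groups of 6 values, 36 members and 3 ratios in each group, 6 held a library whose gap to its neighbour as a share of the range was above Dixon's 95% critical value, where chance gives about 5% of groups, or 3.90. Control replicate 1 was such a library for 4 members. It was at 99.1 CPM for Grid1 (other controls 81.8 to 87.1), at 42.3 CPM for Cacng2 (35.3 to 36.9), at 6.72 CPM for Cacng3 (5.68 to 6.03) and at 127 CPM for Cacng7 (98.7 to 106). Mimic replicate 3 was at 937 CPM for Gria2 (other mimic libraries 851 to 876) and at 0.85 for the log2 ratio of Gria1 to Gria2 (0.99 to 1.06).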

How the results depend on the processing

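Under DESeq2 size factors, total counts, no filter, filterByExpr, the DESeq2 test and no robust estimation, the same 10 members were called in the same direction. The count of members called higher was 2 and that of members called lower 0 when a minimum fold of 1.2 was tested (edgeR, with Grm3 and Grin2c called and 3 higher and 1 lower at an unadjusted p under 0.05; no other tool was run for this). The count called lower was 1 with pan-neuronal scaling and 13 without control replicates 1 and 2. When any 1 library was left out, the count called higher was 5 to 8 and the count called lower 4 to 6, with all losses in Grin3b. The median log2 fold change of the members was 0.051 with pan-neuronal scaling, against -0.03, and -0.03 to -0.01 when any 1 library was left out. The difference in the log2 ratio of Grin2a to Grin2b was 0.037 to 0.075 without any 1 library, called without mimic replicate 5 alone. That of Gria1 to Gria2 was 0.026 without control replicates 1 and 2 (adjusted exact permutation p = 0.638), against -0.08. The cause was not tested for these. Members with a seed site numbered 4 when sites of 8 bases alone were counted, as fewer sites qualify. Divided by the longest transcript instead of all exons, levels per kilobase were up to 2.27 times higher, with Grin1 at 77.5 in place of 34.2 in control.

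Same-numbered control and mimic samples did not deviate together (correlations between -0.22 and 0.32, 0 of 6 best with its own number), so the number was not taken as a pairing. With a replicate block 8 members were called, 5 higher and 3 lower; Gria1 (adjusted p = 0.0530) and Grin3b (0.0677) were not, nor were Dlgap1 (0.0849), Magi2 (0.0915), Prrt1 (0.0533) and Adar (0.110). Sign flips of the same-number differences gave exact permutation p, adjusted over the 3 ratios, of 0.562 for Grin2a to Grin2b, 0.562 for Gria1 to Gria2 and 0.594 for Gria4 to Gria2, whose mean differences (0.054, -0.085 and 0.026) equal the unpaired ones by construction.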
